A study of Mus musculus with 4 samples.

Results

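Cyclins and cyclin-dependent kinases (CDKs), with the inhibitors, phosphatases and kinases that act on them, were compared between brains of C57BL/6 mouse embryos labelled FOXM1f/+;Nestin-Cre and brains labelled WT, at embryonic day 15. The set was chosen by name: 45 listed symbols were looked up in the table of 20421 genes, and all 45 had exactly 1 row. By known role, 23 belong to the cell-division cycle, 12 to transcription, 7 to the neuronal Cdk5 system and the PCTAIRE-type kinases, and 3 are atypical cyclins. GEO lists 4 samples, 2 per genotype, and the design text speaks of triplicates, but the table has 1 column of reads for each genotype, so it cannot be told which samples a column holds. No spread between animals could be measured and no test was made. The columns are called the transgenic and the WT library here. Nestin-Cre drives Cre recombinase from the Nestin promoter in neural progenitors. The labels do not say how the FOXM1f allele was built or whether embryos were pooled. The samples labelled WT carry the titles 2nestin and 4foxm1, so the control may bear either allele alone.

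A CDK has no activity by itself and is switched on by a cyclin partner. D cyclins with Cdk4 or Cdk6 act in G1, E cyclins with Cdk2 at entry into S phase, cyclin A2 in S phase and G2, and B cyclins with Cdk1 in mitosis. Inhibitors of the Cip/Kip and Ink4 families hold these pairs back, Wee1 and Pkmyt1 place inhibitory phosphates on Cdk1, and Cdc25 phosphatases remove them. Other family members do not drive division. Cdk7, Cdk8, Cdk9, Cdk12 and Cdk13 act on RNA polymerase II or the Mediator complex, and Cdk5 works in postmitotic neurons with the activators Cdk5r1 and Cdk5r2. In the embryonic cortex, cycling progenitors line the ventricle and young neurons lie outside them, so a brain extract holds both sets of transcripts. In such an extract, fewer cells of a type and less RNA per cell cannot be told apart.

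Many genes of the late cell cycle carry a pair of promoter elements, the cell cycle genes homology region (CHR) and CCAAT boxes, which bind the DREAM and MuvB complexes and NF-Y. RefSeq promoter windows (GRCm38.p6, 250 bases before to 50 after a gene's start) were at hand for 33 of the 45 genes. The windows below are those of Cdk1, of its cyclins Ccnb1 and Ccnb2, of Ccnf, a cyclin that peaks in G2, and of Cdk5r2, the member with the lowest ratio. Each line runs 5′ to 3′ on the gene's strand and ends 30 bases after the start. Capitals mark TTTGAA or TTCGAA (CHR), CCAAT, and the E2F letters TTTCCCGC, TTTGGCGC, TTTCGCGC or TTTGCCGC, on either strand. A match of letters is a description and not a binding site.
Ccnb1 (chr13:100786457-100786736, minus strand): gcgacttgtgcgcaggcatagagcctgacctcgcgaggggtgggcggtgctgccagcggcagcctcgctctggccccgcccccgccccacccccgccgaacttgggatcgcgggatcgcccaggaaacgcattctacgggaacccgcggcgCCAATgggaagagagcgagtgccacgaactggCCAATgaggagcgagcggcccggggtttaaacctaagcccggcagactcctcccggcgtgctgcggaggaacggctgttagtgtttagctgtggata
Ccnb2 (chr9:70421525-70421804, minus strand): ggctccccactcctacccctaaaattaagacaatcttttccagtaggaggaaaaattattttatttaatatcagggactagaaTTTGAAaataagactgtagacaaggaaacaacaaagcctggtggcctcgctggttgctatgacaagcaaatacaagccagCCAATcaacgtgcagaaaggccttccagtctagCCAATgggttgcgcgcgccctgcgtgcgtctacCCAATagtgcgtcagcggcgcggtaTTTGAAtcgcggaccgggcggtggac
Cdk1 (chr10:69352883-69353162, minus strand): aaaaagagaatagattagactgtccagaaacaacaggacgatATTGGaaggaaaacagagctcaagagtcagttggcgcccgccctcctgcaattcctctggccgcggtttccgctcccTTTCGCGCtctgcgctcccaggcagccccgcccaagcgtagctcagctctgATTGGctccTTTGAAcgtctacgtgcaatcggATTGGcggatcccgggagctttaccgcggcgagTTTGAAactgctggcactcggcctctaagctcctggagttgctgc
Ccnf (chr17:24251380-24251659, minus strand): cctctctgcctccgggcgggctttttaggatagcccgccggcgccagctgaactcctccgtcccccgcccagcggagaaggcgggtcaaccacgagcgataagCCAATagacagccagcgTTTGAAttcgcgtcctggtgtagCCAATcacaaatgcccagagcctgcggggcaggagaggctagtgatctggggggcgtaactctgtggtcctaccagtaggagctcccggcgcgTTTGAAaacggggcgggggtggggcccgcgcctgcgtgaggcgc
Cdk5r2 (chr1:74854779-74855058, plus strand): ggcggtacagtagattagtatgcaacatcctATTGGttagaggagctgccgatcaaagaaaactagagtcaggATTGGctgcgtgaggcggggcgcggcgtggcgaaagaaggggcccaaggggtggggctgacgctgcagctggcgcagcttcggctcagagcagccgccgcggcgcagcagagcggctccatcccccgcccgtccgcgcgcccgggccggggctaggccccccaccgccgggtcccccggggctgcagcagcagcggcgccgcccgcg

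Cdk1, Ccnb2 and Ccnf each had 2 CHR matches, 1 of them close to the start: 15 bases before it in Cdk1, 14 before it in Ccnf and 5 after it in Ccnb2. The atypical cyclin Ccni also had 2, at 137 and 92 bases before its start. The windows of Ccnb1 and Cdk5r2 each held 2 CCAAT boxes and neither TTTGAA nor TTCGAA. Other forms of the CHR were not searched, so it cannot be said that either window lacks one. A CHR and a CCAAT box stood together in 5 of 16 cell-cycle members with a window (31.2%), namely Ccnb2, Ccnf, Cdk1, Cdkn3 and Cdc25b, and in 0 of 11 transcriptional members. Among the 7 neuronal and PCTAIRE-type members, 3 had a window and 1 of these, Cdk16, held both. Of the 27025 genes in the promoter table, 8.61% held both elements and 21.7% held CHR letters. CHR letters were present in 7 of 33 members (21.2%), which is at the share of all genes, and in 5 of 16 cell-cycle members. At least 1 CCAAT box was present in 12 of 16 cell-cycle and 5 of 11 transcriptional members, against 41.1% of all genes. E2F letters were found in Cdk1, Cdk2 and Cdc25a and in 2.60% of all genes, and the forkhead letters TGTTTA, on either strand, in 4 of 33 members and 15.1% of all genes.

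The libraries held 17856653 reads (transgenic) and 17543705 reads (WT). Mouse Foxm1 itself had 72.2 CPM (reads scaled to library size) in the transgenic library against 64.9 CPM in the WT one; a human FOXM1 was not measured. Differences outside this gene set were large. Xist had 9628 against 5 reads, and the Y-linked genes Uty, Ddx3y, Kdm5d and Eif2s3y had 0 against 202, 484, 773 and 1266 reads. The libraries thus also differ in sex content, and sex cannot be told apart from genotype in any ratio below. Among the members, 1, Cdk16, lies on the X chromosome. Choroid plexus markers (Ttr, Folr1 and Clic6) summed to 11.03 CPM in the transgenic library against 675 CPM in the WT one, and erythroid markers to 661 and 315 CPM. The erythroid markers were not uniform: Hbb-y, Hba-x and Hba-a1 had ratios of 6.29, 2.62 and 1.70, but Alas2 had 0.918 (0.772 to 1.09). Summed markers of microglia were 1.49-fold, of meninges and pericytes 1.46-fold, of oligodendrocyte precursors 1.27-fold and of endothelium 1.11-fold lower in the transgenic library. Single markers in these sums differed. Intervals of counting error included 1 for 3 of 4 endothelial and 1 of 4 microglial markers, against 9358 of all 14557 tested genes. Col1a1 and Col1a2 were 3.15-fold and 2.54-fold lower, while the intervals of Pdgfrb (0.794 to 1.07) and Dcn (0.469 to 1.096) included 1. Pdgfra, Sox10 and Olig1 were 2.28-fold, 1.99-fold and 1.34-fold lower, while Olig2 had a ratio of 0.976 (0.869 to 1.096). The part of these differences in the values below was not tested.

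Of 23 genes of the division cycle, 12 had a CPM ratio, transgenic over WT, of at least 1.2, and none was 1.2-fold lower. The other 11 lay between these limits. In the transcriptional group 0 of 12 passed 1.2-fold in either direction, and in the neuronal and PCTAIRE-type group 0 of 7 were higher and 1, Cdk5r2, was lower. Of the 14557 genes averaging 1 CPM or more, which are the genes tested, 11.5% were 1.2-fold higher and 15.7% lower. Of those averaging 10 CPM or more, a level that 44 of the 45 members reach, 6.63% were higher and 7.85% lower. A limit of 1.1-fold was passed upwards by 18 cell-cycle members and downwards by 1, Cdkn1a, against 23.4% and 27.8% of tested genes, and a limit of 1.5-fold by none of them in either direction, against 2.53% and 5.23%. The median log2 ratio was 0.27 for cell-cycle members, 0.06 for transcriptional, -0.10 for neuronal and PCTAIRE-type members and -0.01 over all tested genes. The 95% interval of counting error, exact for a ratio of 2 read counts, lay wholly above 1 for 16 cell-cycle members and wholly below 1 for 1. Over all tested genes it did so for 16.5% and 19.2%, and over those averaging 10 CPM or more for 20.2% and 21.1%. Such intervals cover counting error only.

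**Figure D1:**
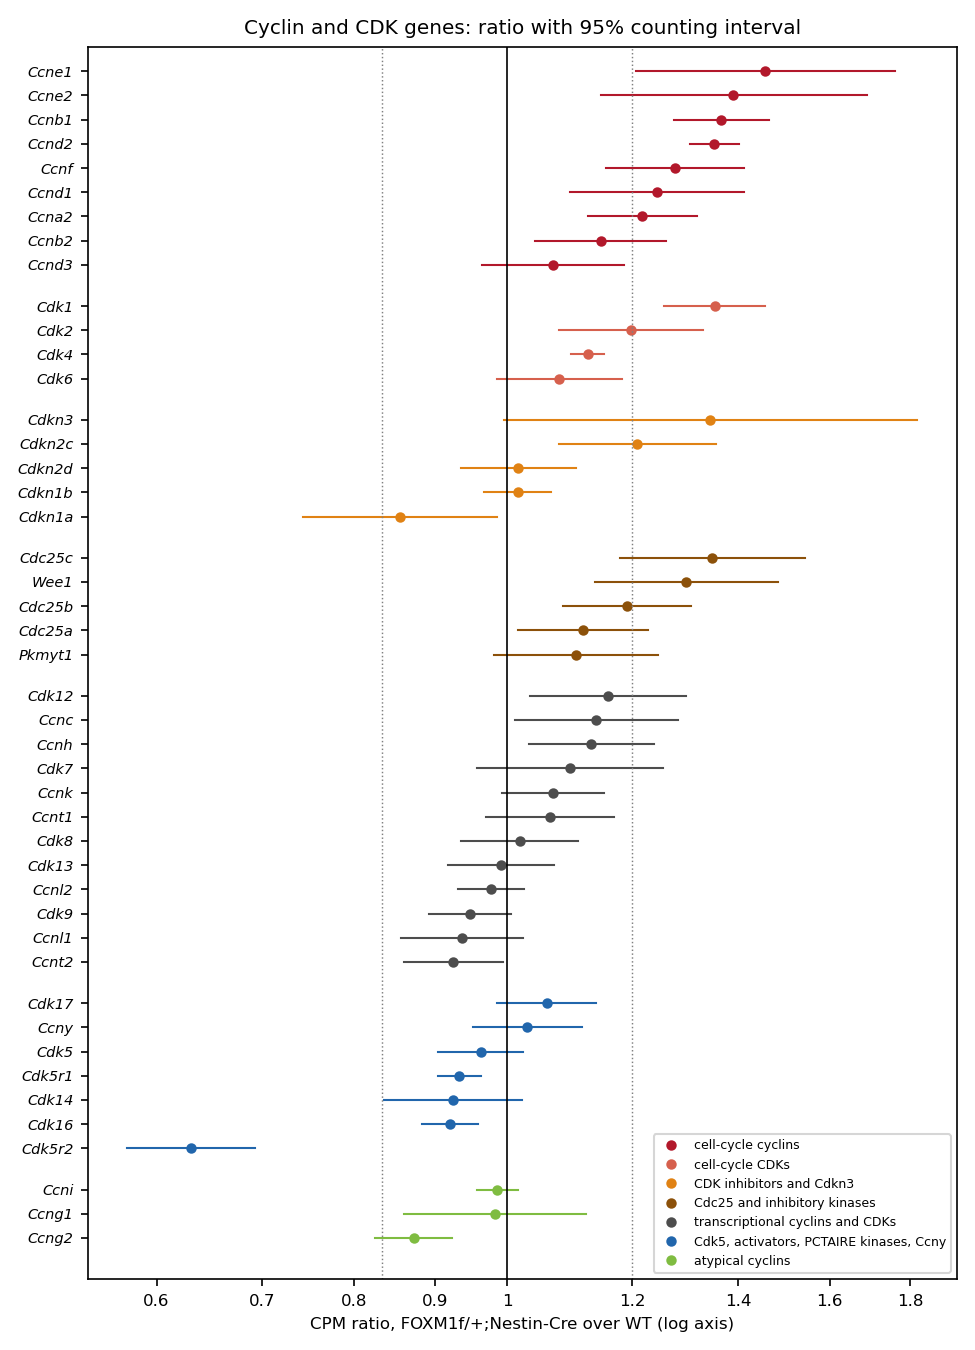
CPM ratio of each of the 45 genes (points), FOXM1f/+;Nestin-Cre over WT, with 95% counting intervals (lines), on a log axis and grouped by role; the solid line marks equality and the dotted lines 1.2-fold in either direction. All 9 cell-cycle cyclins lie right of the solid line, while Cdk5r2 is the only gene left of the lower dotted line. Of all 14557 tested genes, 7039 had a ratio above 1 and 15.7% were at least 1.2-fold lower.

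**Figure D2:**
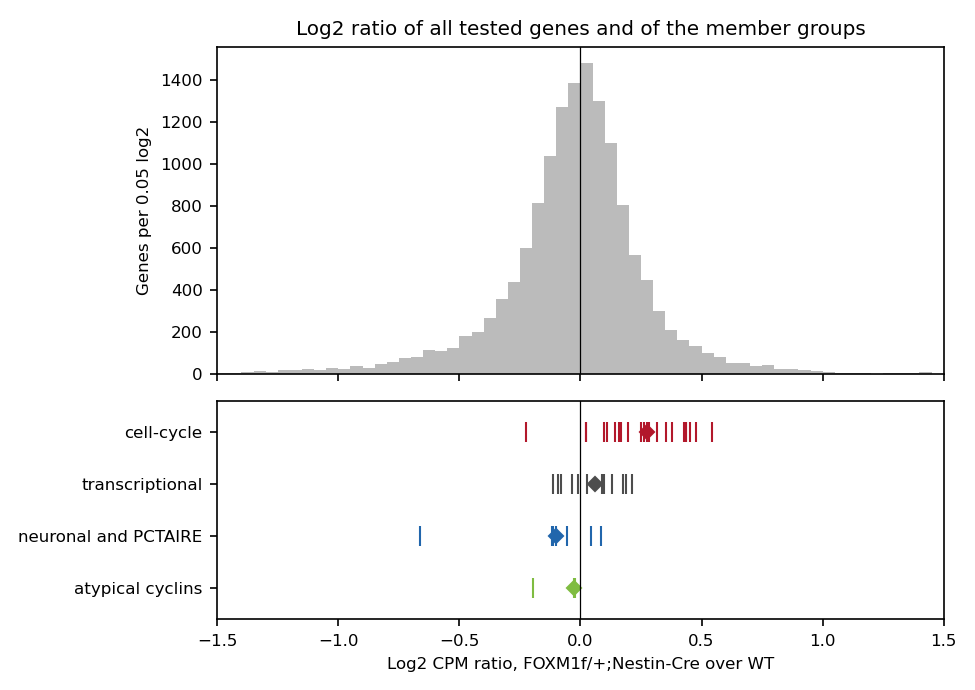
Upper panel, number of tested genes per 0.05 of log2 CPM ratio, FOXM1f/+;Nestin-Cre over WT (137 of 14557 genes lie beyond 1.5 on either side and are not drawn); lower panel, each member (ticks) and the group median (diamonds) on the same axis. The median of the cell-cycle group stands at 0.27, right of the peak of all genes, and that of the neuronal and PCTAIRE-type group at -0.10.

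Cyclins gave the clearest pattern: all 9 cell-cycle cyclins had ratios above 1, and 7 reached 1.2-fold. Of all 14557 tested genes, 7039 had ratios above 1, and 11.5% reached 1.2-fold. Among genes averaging 10 CPM or more, 5120 of 10138 had ratios above 1. The E cyclins, which open S phase with Cdk2, had the highest ratios of the whole set. Ccne1 had 15.7 CPM in the transgenic library against 10.8 CPM in the WT one, 1.46-fold higher (1.21 to 1.76). Ccne2 had 14.5 and 10.4 CPM, 1.39-fold higher (1.15 to 1.69). Both rest on few reads, 280 against 189 for Ccne1 and 259 against 183 for Ccne2, which is why their intervals are wide. On chromosome 4, 17.4% of the exon length of Ccne2 overlaps Ints8 on the other strand, and Ints8 was itself 1.21-fold higher, so reads of the pair cannot be told apart unless strand was used.

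Among D cyclins, which couple growth signals to G1, Ccnd2 (chromosome 6, 127125162 to 127152193, GRCm38) dominated. It had 416 CPM in the transgenic library against 308 CPM in the WT one, a ratio of 1.35 (1.31 to 1.40). The difference of 109 CPM was the largest of any member. Ccnd1 had 31.4 and 25.2 CPM, 1.24-fold higher (1.097 to 1.41), and 23.4% of its exon length overlaps Oraov1 on the other strand, which was 1.21-fold higher. Ccnd3 stood apart with 42.7 and 39.9 CPM and a ratio of 1.07 (0.964 to 1.19). The make-up of the D class therefore differed as well. Ccnd2 took 84.9% (84.1 to 85.6) of the D cyclin reads in the transgenic library and 82.5% (81.6 to 83.4) in the WT library, while Ccnd3 took 8.71% (8.13 to 9.32) and 10.7% (9.97 to 11.5). Shares of this kind, with exact Clopper-Pearson intervals, do not depend on how the libraries are scaled.

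Of the cyclins of S phase, G2 and mitosis, Ccnb1 (chromosome 13, 100778650 to 100786570, GRCm38), the main activator of Cdk1 in mitosis, had 109 CPM in the transgenic library against 79.7 CPM in the WT one, a ratio of 1.37 (1.28 to 1.46). Ccnb2, a second B cyclin found at the Golgi, had 52.5 and 45.8 CPM, with a smaller ratio of 1.15 (1.04 to 1.26). Ccnb1 made up 67.5% (65.8 to 69.2) of B cyclin reads in the transgenic library and 63.5% (61.5 to 65.5) in the WT library, so Ccnb1 was higher relative to Ccnb2 beyond counting error. Ccna2, the cyclin of S phase and G2, had 77.9 and 64.0 CPM, 1.22-fold higher (1.12 to 1.32), and 12.5% of its exon length overlaps Exosc9 on the other strand, whose ratio was 1.01. Ccnf, which directs proteins to destruction as part of an SCF ubiquitin ligase and binds no CDK to do so, had 49.9 and 39.1 CPM, 1.28-fold higher (1.16 to 1.41). Of the 50-base words in Ccnb1 transcripts, 23.4% occur in other annotated transcripts, mostly of pseudogenes, and the 2 such pseudogenes in the table had 7 against 9 and 5 against 6 reads.

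Of the 4 cell-cycle kinases, Cdk1 had an interval above those of Cdk4 and Cdk6, while that of Cdk2 overlapped each of the others. Cdk1, the kinase of mitosis, had 95.2 CPM in the transgenic library against 70.4 CPM in the WT one, 1.35-fold higher (1.26 to 1.46), close to the ratio of its partner Ccnb1. Cdk2, the partner of cyclins E and A, had 44.8 and 37.4 CPM, with a ratio of 1.198 (1.08 to 1.33), just under the limit of 1.2. Cdk4, a G1 kinase and the most abundant member per length, had 847 and 753 CPM, 1.12-fold higher (1.098 to 1.15). Cdk6, the second G1 kinase, had 55.5 and 51.5 CPM, and its interval included 1 (0.985 to 1.18). Cdk4 took 93.8% (93.5 to 94.2) of the reads of this pair in the transgenic library against 93.6% (93.2 to 94.0) in the WT one, a difference within counting error. Exons of Cdk4 overlap those of Tspan31 on the other strand over 19.7% of their length, and Tspan31 was 1.12-fold higher. Summed over Ccna2, Ccnb1, Ccnb2, Ccnf and Cdk1, the level was 385 CPM in the transgenic library against 299 CPM in the WT one, 1.29-fold higher (1.24 to 1.33).

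Enzymes that set the phosphates on Cdk1 and Cdk2 had ratios above 1 on both the activating and the inhibiting side. Cdc25c, a phosphatase of mitotic entry, had 29.1 CPM in the transgenic library against 21.5 CPM in the WT one, 1.35-fold higher (1.18 to 1.54). Its exons overlap Gm3550 on the other strand over 12.7% of their length, and Gm3550 had 5 against 11 reads. Cdc25b, which starts Cdk1 activation at the centrosome, had 56.4 and 47.4 CPM, and Cdc25a, which acts at S phase entry too, 52.6 and 47.1 CPM. Their ratios were 1.19 (1.09 to 1.31) for Cdc25b and 1.12 (1.02 to 1.23) for Cdc25a. The opposing kinase Wee1 had 29.0 and 22.3 CPM, 1.30-fold higher (1.14 to 1.48). Pkmyt1, the membrane-bound kinase with the same target, had 33.3 and 30.1 CPM, and its interval included 1 (0.981 to 1.25). The 3 Cdc25 genes summed to a ratio of 1.19 (1.12 to 1.26), and Wee1 with Pkmyt1 also to 1.19 (1.09 to 1.30).

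Inhibitors differed among themselves. Cdkn2c, an Ink4 inhibitor of Cdk4 and Cdk6, had 37.6 CPM in the transgenic library against 31.1 CPM in the WT one, 1.21-fold higher (1.08 to 1.36). Its relative Cdkn2d had 63.6 and 62.6 CPM. Cdkn1b, the Kip1 inhibitor that rises as progenitors leave the cycle, had 184 and 181 CPM, a ratio of 1.02 (0.967 to 1.07). Cdkn1a, the Cip1 inhibitor and a target of p53, was the only cell-cycle member with a ratio below 1, at 20.8 CPM in the transgenic library against 24.3 CPM in the WT one, 1.17-fold lower (1.01 to 1.35). Cdkn3, a phosphatase that acts on the activating phosphate of CDKs despite its inhibitor-like symbol, had 108 against 79 reads and a ratio of 1.34 whose interval included 1 (0.996 to 1.82).

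Genes of transcription stayed within 1.2-fold. In the P-TEFb kinase, which releases paused RNA polymerase II, Cdk9 had 119.7 CPM in the transgenic library against 126 CPM in the WT one, a ratio of 0.947 (0.892 to 1.01). Its cyclins had ratios of 1.06 (0.969 to 1.17) for Ccnt1 and 0.925 (0.860 to 0.994) for Ccnt2, and these intervals overlap. Summed, the 3 genes had 253 and 263 CPM, a ratio of 0.962 (0.923 to 1.002). Cdk12, a kinase of transcript elongation, had 37.2 and 32.1 CPM, the highest ratio of this group at 1.16 (1.03 to 1.30), whereas its relative Cdk13 had 73.5 and 74.1 CPM. Their shared cyclin Ccnk had 83.8 and 78.4 CPM. In the Mediator kinase, the cyclin Ccnc had 33.9 and 29.8 CPM, a ratio of 1.14 (1.01 to 1.28), and the kinase Cdk8 61.8 and 60.6 CPM. The splicing-linked cyclins Ccnl1 and Ccnl2 had ratios of 0.937 (0.857 to 1.02) and 0.977 (0.931 to 1.03). Ccnh and Cdk7, the pair that activates other CDKs and belongs to the factor TFIIH, had ratios of 1.13 (1.03 to 1.24) and 1.096 (0.957 to 1.26).

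Within the neuronal system the interval of Cdk5r2 lay below those of Cdk5 and Cdk5r1, which overlap each other. Cdk5 had 113 CPM in the transgenic library against 118 CPM in the WT one, a ratio of 0.962 (0.904 to 1.02). Cdk5r1, its main activator in the embryonic brain, had 429 and 459.8 CPM, 1.07-fold lower (1.04 to 1.11). Cdk5r2 (chromosome 1, 74854934 to 74857732, GRCm38), the second activator, had 749 reads in the transgenic library against 1166 reads in the WT one, or 41.9 and 66.4 CPM. That is 1.58-fold lower (1.44 to 1.74), and 4.15% of all tested genes had a lower ratio. Cdk5r2 was also the only member marked as significant in the authors' deposited table, which marks 6.27% of the tested genes. Of the reads of both activators, Cdk5r2 took 8.91% (8.31 to 9.54) in the transgenic library against 12.6% (11.95 to 13.3) in the WT one, so it was lower relative to Cdk5r1 as well. The summed CPM of all 3 genes were 1.103-fold lower (1.07 to 1.13) in the transgenic library.

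Kinases of the PCTAIRE and PFTAIRE type, which are expressed in neurons, and the membrane-bound cyclin Ccny, which activates them, were within 1.2-fold. Cdk16 had 252 CPM in the transgenic library against 274 CPM in the WT one, 1.09-fold lower (1.04 to 1.13), and is the X-linked member. Cdk17 had 88.0 and 83.1 CPM, Cdk14 42.7 and 46.2 CPM, and Ccny 70.7 and 68.7 CPM, each with an interval that includes 1. Of the atypical cyclins, Ccng2, which is linked to cell cycle arrest, had 130.3 CPM in the transgenic library against 149 CPM in the WT one, 1.15-fold lower (1.08 to 1.21). Ccng1, a target of p53, had 453 reads in each library. Ccni, an abundant cyclin of nondividing tissue, had 477 and 484 CPM, and 14.2% of its 50-base words occur in other annotated transcripts.

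Setting the mitotic kinase directly against the neuronal one removes library scaling. Of the reads of Cdk1 and Cdk5 together, Cdk1 took 45.7% (44.0 to 47.3) in the transgenic library against 37.4% (35.7 to 39.1) in the WT one. The intervals do not overlap. Summed progenitor markers were higher and summed neuron markers lower in the transgenic library, but single markers varied. The 8 apical progenitor markers summed to 2210 CPM in the transgenic library against 1812 CPM in the WT one, 1.22-fold higher (1.201 to 1.24), with 3 at least 1.2-fold higher and 0 lower, against 11.5% and 15.7% of all tested genes. Counting intervals lay above 1 for 5 of these 8 markers, against 16.5% of all tested genes, and included 1 for the other 3. The 4 intermediate progenitor markers were 1.11-fold higher in sum (1.08 to 1.14), with 2 at least 1.2-fold higher, while Insm1 had a ratio of 0.951 (0.907 to 0.997). The 8 neuron markers were 1.07-fold lower in sum (1.06 to 1.08), with 2 at least 1.2-fold lower and 0 higher. The part of these marker differences in the ratios of cyclins and CDKs was not tested.

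**Figure D3:**
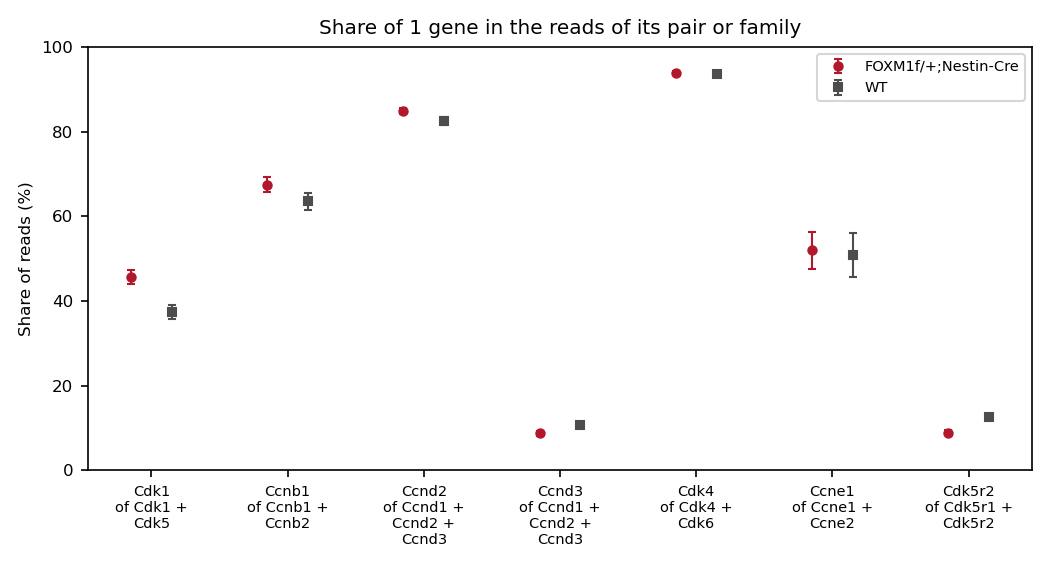
Share of 1 gene in the summed reads of its pair or family (percent), in the FOXM1f/+;Nestin-Cre (circles) and the WT library (squares), with 95% exact Clopper-Pearson intervals that cover counting error only. Cdk1 takes 45.7% of the Cdk1 and Cdk5 reads in the transgenic library against 37.4% in the WT one, while the share of Cdk4 in its pair is 93.8% and 93.6%.

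Levels between genes were compared as CPM per kb of merged exons. Cdk4 was the highest member, at 261 CPM per kb in the transgenic library against 232 CPM per kb in the WT one, followed by Ccni at 144 and 147 and Cdk5r1 at 103 and 110.5 CPM per kb. Cdk5 stood at 52.3 and 54.4 CPM per kb, above Cdk1 at 19.3 and 14.3 and Cdk2 at 7.20 and 6.01 CPM per kb. Ccnd2 led the D cyclins with 44.3 and 32.7 CPM per kb. At the low end, Cdkn3 had 2.55 and 1.90 CPM per kb and Cdk14 2.26 and 2.45 CPM per kb. The order within the cyclins of mitosis was Ccnb2 first, at 34.3 and 29.9 CPM per kb, then Ccnb1 at 25.8 and 18.9, although Ccnb1 had more reads. Merged exons can be longer than the transcripts in use, so these levels depend on the annotation.

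**Figure D4:**
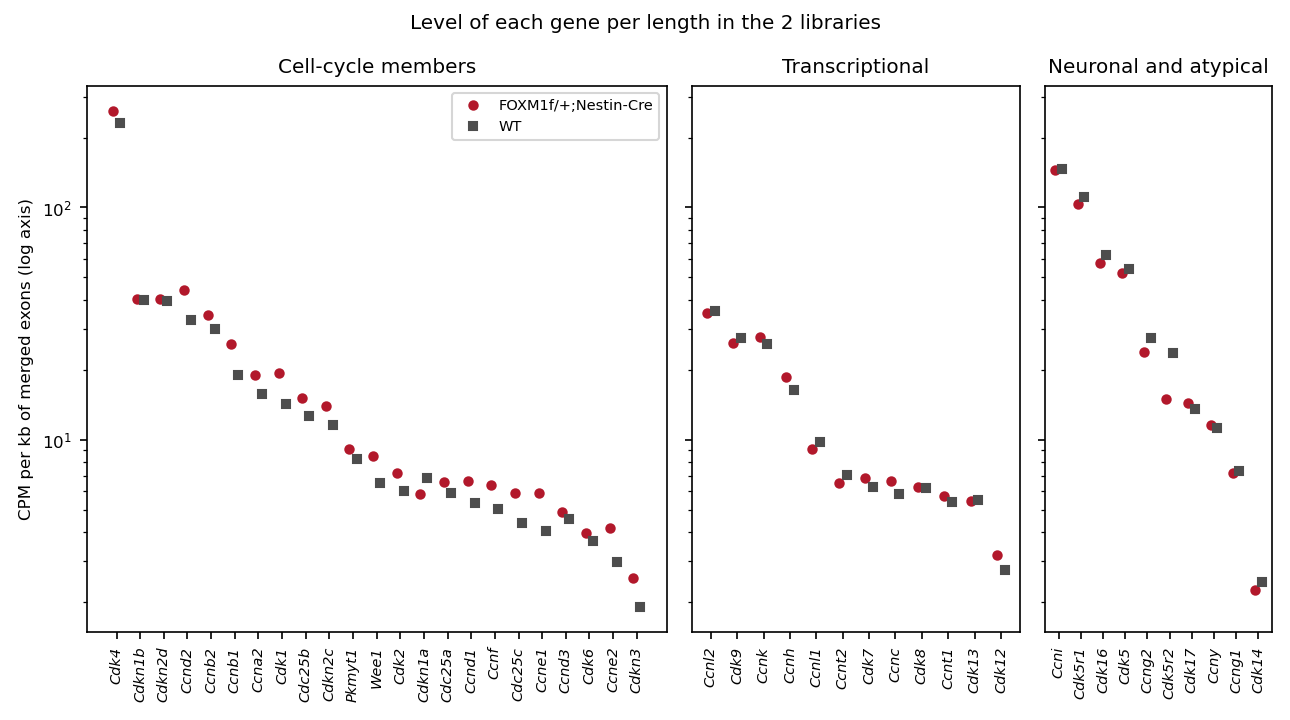
Level of each of the 45 genes in CPM per kb of merged exons (log axis), in the FOXM1f/+;Nestin-Cre (circles) and the WT library (squares), sorted by mean level within 3 panels. Circles stand above squares for 22 of the 23 cell-cycle members, Cdkn1a being the exception, and the highest level is that of Cdk4. For 6 of the 23 the counting interval of the ratio includes 1. Of all 14557 tested genes, 7039 had a ratio above 1.

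Other genes of the cyclin and CDK families, inhibitors and accessory proteins were split in direction. Of 33 listed, 26 averaged 1 CPM or more, and of these 7 were higher and 4 were lower by 1.2-fold or more, with a median log2 ratio of 0.03. That is 26.9% higher and 15.4% lower, against 11.5% and 15.7% of all tested genes, so the share of lower genes is at the background. The small subunits that bind CDKs, Cks1b and Cks2, had 71.1 and 52.6 CPM in the transgenic library, against 51.2 and 38.9 CPM in the WT library. Their ratios were 1.39 (1.27 to 1.52) for Cks1b and 1.35 (1.23 to 1.497) for Cks2, close to those of Ccnb1 and Cdk1. Cdkn1c, an imprinted Kip inhibitor, had 61.9 and 46.7 CPM, 1.33-fold higher (1.21 to 1.45). Larp7, which holds P-TEFb in its inactive store, had 51.0 and 40.7 CPM, 1.25-fold higher (1.13 to 1.38). The 4 lower genes, named after their values were seen, were Cdk20, Cdkl3, Cdkl1 and Cdkl2, with ratios of 0.833, 0.826, 0.706 and 0.682. Cdkl1 rests on 23 against 32 reads, and its interval included 1 (0.395 to 1.25). Also named after their values were seen, Cdkn2a and Cdkn2b, the Ink4 inhibitors of aging and arrested cells, were near zero, with 1 read each in the transgenic library and 3 and 7 reads in the WT library.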

How the data were processed

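Total RNA from whole-brain samples, 2 ug each, entered the libraries, per the labels' protocols. Bowtie2 2.2.3, TopHat2 2.0.12, HTSeq 0.6.0 and the genome mm9 are named in the submitters' processing notes; strand setting and annotation were not given in those notes or the labels. The table's coordinates match GRCm38: 39 of 45 members have the same start and end in GENCODE M21. Per the file headers, the authors deposited 1 column of raw counts and 1 of normalized values per genotype. The deposited normalized values are CPM, with a count of 0 entered as 0.5 reads (set back to 0 here). The deposited fold change is their ratio, and the deposited log2 column its logarithm. The deposited p-values compare 1 column with 1 column and were used only through the authors' mark of significance. The columns name a genotype and match no single sample.

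Groups follow the genotype label. With 1 column per genotype there is no replicate, and no test was made. Ratios of CPM, transgenic over WT, carry exact conditional (Clopper-Pearson) 95% intervals of counting error; without molecular identifiers, reads are no independent molecules, and intervals cover no more than that. Members have 79 to 15128 reads per library. The 14557 genes averaging 1 CPM or more were set against a limit of 1.2-fold. Members, lists, the 1.2-fold limit and motif letters were chosen with earlier results of these data known. All 45 members are reported. From other lists at most 4 genes are named, by difference relative to counting error, plus those said to be chosen otherwise. The sex-linked genes listed are all named. Overlaps and shared 50-base words come from GENCODE M21, and values of genes with either are uncertain. Python 3.11.15, NumPy 2.4.6, pandas 2.3.3, SciPy 1.17.1, Matplotlib 3.10.9, R 4.3.3 and edgeR 4.0.16 (scaling factors only) were used. The interval procedure was run on simulated Poisson counts, which hold counting error only, so that run says nothing on spread between animals or libraries. Alternatives were TMM and RLE factors, centring on the median gene, other CPM minimums and other fold limits. No amino acid sequences were used here.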

Additional observations from a re-analysis of the deposited data

How the results depend on the processing

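No paired analysis was possible because the table has 1 column per genotype and the columns carry no replicate number; leaving out a replicate was likewise not possible. Scaling by TMM factors, by RLE factors or on the median gene left 13 to 14 cell-cycle members at least 1.2-fold higher, against 12 with library totals, and the count stayed at 12 without an expression minimum and became 11 among genes averaging 10 CPM or more. All tested genes shifted the same way. Of the 14557, 1747 to 1898 were at least 1.2-fold higher under these scalings, against 1667 with library totals. Those at least 1.2-fold lower numbered 2070 to 2213, against 2286. All 45 member ratios stayed inside their counting intervals under the 3 scalings, but the interval calls moved: 20 to 23 members lay wholly above 1, against 19 with library totals, and 4 to 5 wholly below, against 6. Interval calls over all genes under these scalings are not given here. The interval of Ccnt2 included 1 under each of the 3, and that of Cdkn1a under RLE factors. The fold limit mattered more. At 1.5-fold, 0 cell-cycle members were higher and Cdk5r2 remained lower. At 1.1-fold, 18 cell-cycle members were higher and 1 was lower (Cdkn1a). Of the 19 transcriptional and neuronal members, 3 were higher and 1 was lower (Cdk5r2). Over all tested genes, 23.4% were higher and 27.8% lower at this limit, so the 3 do not exceed the share of all genes. By a counting interval wholly on 1 side of 1, 1 cell-cycle member was lower, 3 transcriptional and neuronal members were higher (Ccnc, Ccnh and Cdk12) and 4 were lower (Ccnt2, Cdk5r1, Cdk5r2 and Cdk16), or 15.8% and 21.1%, close to the 16.5% and 19.2% of all tested genes. Among genes averaging 10 CPM or more, these shares were 20.2% and 21.1%. Over the scalings and CPM minimums, the median log2 ratio ranged over 0.27 to 0.30 for cell-cycle, 0.06 to 0.08 for transcriptional and -0.10 to -0.08 for neuronal and PCTAIRE-type members. Depth limits Cdkn3 and the E cyclins most.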

Other observations

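The kinase that activates other CDKs is built from Cdk7, Ccnh and the assembly factor Mnat1. Mnat1, named here after its value was seen, had 478 reads in the transgenic library against 371 in the WT one, a ratio of 1.27 (1.103 to 1.45), above those of Ccnh at 1.13 and Cdk7 at 1.096. The counting intervals of all 3 ratios overlap. The Cip/Kip inhibitors differed among themselves, with ratios of 1.33 for Cdkn1c, 1.02 for Cdkn1b and 0.856 for Cdkn1a. The interval of Cdkn1c (1.21 to 1.45) lay above both others, while those of Cdkn1b (0.967 to 1.07) and Cdkn1a (0.742 to 0.986) overlap.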
